A study of Drosophila melanogaster with 12 samples.

Results

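In Drosophila melanogaster the eye-antennal disc is the larval epithelium that forms the adult eye, antenna and head capsule. The comparison described here set the whole disc at white puparium formation (the white prepupa, WPP) against the whole disc at 120 h after egg laying. It addresses which transcripts differ in the disc between the end of larval life and the start of metamorphosis. Its members were the genes with at least 5 FPKM (fragments per kilobase of transcript at a common sequencing depth, so a level per transcript length) in the higher of these 2 libraries. They numbered 7239 of the 10893 genes in the table (66.5%), after 320 genes had been set aside as described below. The difference was log2 of (WPP + 1) over (120 h + 1), and a gene was said to rise or fall only where this differed at least 2-fold.

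All 12 libraries of the series were made from poly(A) RNA of w[11-18] larvae or prepupae, raised at 25 °C on medium of yeast and glucose. Tissue was taken from live animals, extracted in Trizol and reverse transcribed from random hexamers. Beside the WPP and 120 h whole discs there were whole discs at 72 and 96 h, a 72 h disc with the cuticular mouthparts attached, the eye part and the antenna part each at 96 and 120 h, and whole larvae at 72, 96 and 120 h, with each age held to within 1 h. Each was 1 library, and the number and sex of the pooled animals were not given in the sources used here. The comparison therefore had no replicate and no p-value, and the eye and antenna parts at 120 h served as the only further measures of the 120 h disc.

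Metamorphosis is set off by the steroid 20-hydroxyecdysone. A pulse at the end of the last larval instar acts through the EcR and usp receptor pair to induce early regulators, then late regulators, and the disc stops growing, turns inside out (eversion) and lays down an apical matrix and a pupal cuticle. In the late larva the eye part still holds the morphogenetic furrow, behind which photoreceptors are recruited, while the antenna part is divided into segments.

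Over the 7239 members the median difference was -0.11 and the quartiles were -0.36 and 0.15 on the log2 scale. In WPP 335 genes were at least 2-fold higher (4.63% of members) and 489 at least 2-fold lower (6.76%), together 824 genes (11.4%), and 141 and 183 of them were past 4-fold. When all 3 libraries of the 120 h disc were used, 192 genes (2.65%) stood at least 2-fold above all of them and 237 (3.27%) at least 2-fold below all of them. Of the genes that rose, 64 were under 1 FPKM at 120 h, 35 were under 1 FPKM in the whole disc at every larval age sampled, and 241 were above all 8 other disc libraries. Of the genes that fell, 386 were below all 8 other disc libraries and 114 were under 1 FPKM in WPP. A member under 1 FPKM in either library entered through the other and so had to pass the size. In whole tissue, fewer cells of a type and less RNA per cell cannot be told apart.

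**Figure D1:**
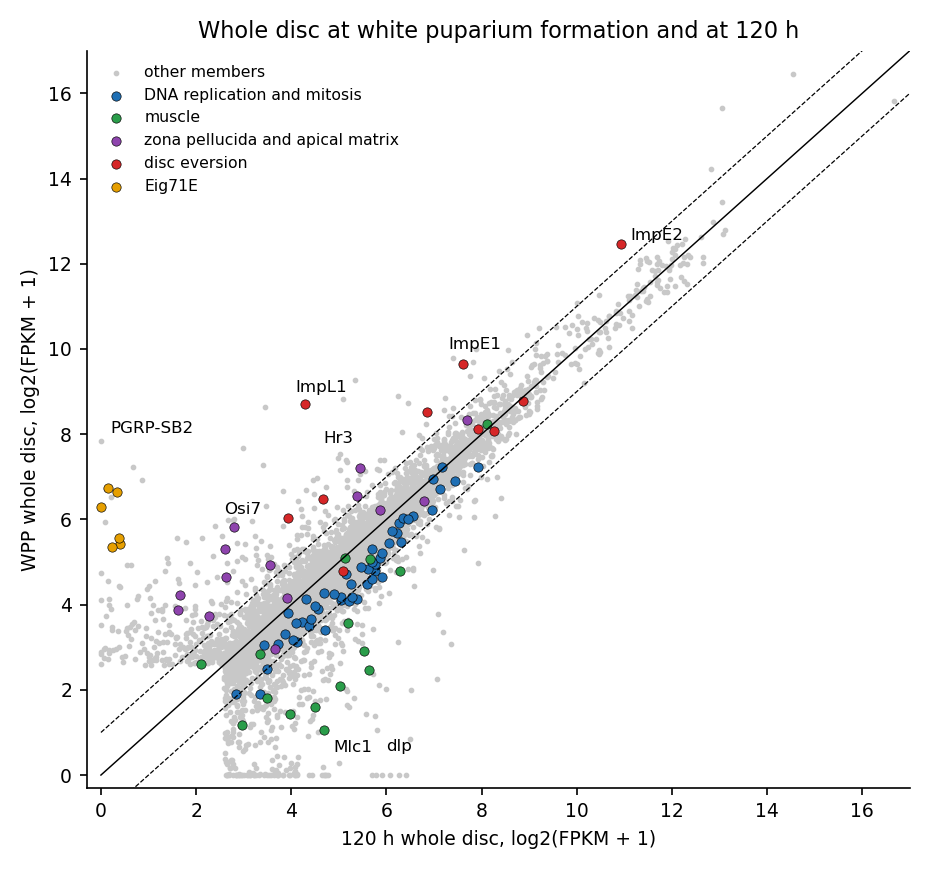
Level of each member in the 120 h whole disc (x axis) and in the WPP whole disc (y axis), both as log2(FPKM + 1), with a solid line at equal levels and dashed lines at 2-fold; coloured points are genes of 5 lists and grey points all other members. The eversion, apical matrix and Eig71E genes lie mostly above the upper line, and the replication, mitosis and muscle genes lie mostly below the solid line.

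The deposited values held 2 features that touch the counts. First, WPP listed 981 genes at 0 against 242 to 609 in the other disc libraries, and 38 genes other than small RNAs were under 1 FPKM in WPP while reading at least 10 FPKM in all 8 other disc libraries. No other disc library had such a gene. Of the 36 with an annotation, 27 (75%) overlapped another gene's span, against 50.7% of members. These genes were set aside, as were genes whose symbols mark snoRNAs, sncRNAs and microRNA hairpins, but 31 further members were under 1 FPKM in WPP with at least 5 FPKM in all 8 others. Second, short transcripts varied most between libraries. The 120 h whole disc differed at least 2-fold from the weighted mean of its own eye and antenna parts (61% eye, the weight that matched 478 genes that differ between the parts best) for 75.9% of members under 300 nt, 23.9% of those from 300 to under 600 nt and 0.753% of those of 2000 nt or more. Over transcripts of at least 1000 nt, 9.4% of 5734 members differed 2-fold between WPP and 120 h, while 1.14% of 5624 did between the 120 h disc and its parts. At the 5 FPKM limit, Cyp4d2 with 5.009 FPKM at 120 h was just inside and NimB4 with 4.99 FPKM just outside, although NimB4 fell to 0.276 FPKM. At the 2-fold size, plum at -1.0006 was just inside and Cdc45, a replication factor, at -0.9998 just outside.

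The ecdysone receptor genes and 11 of 13 early-response members stayed within 2-fold, while 3 of 5 members of the midprepupal regulator list passed the size. Over all members 11.4% passed the size. The early list was written with 17 genes, and the other 4, some of them central to the cascade, were not analysed here. Among the 13 members 1 rose and 1 fell, with a median of -0.04. EcR, the ecdysone receptor, read 38.8 FPKM at 120 h and 24.8 FPKM in WPP, and its partner usp read 38.1 and 39.1 FPKM. The early nuclear receptor gene Eip75B was as high in WPP (77.1 FPKM) as at 120 h (73.9 FPKM), and Eip74EF, an early ETS factor, read 21.7 and 12.3 FPKM. Eip78C, an early-late nuclear receptor, went through 0.898, 2.33 and 16.7 FPKM at 72, 96 and 120 h to 34.1 FPKM in WPP, just short of the 2-fold size at 0.99. The gene that rose was E23, an ecdysone-induced ABC transporter, from 5.29 to 22.1 FPKM (log2 difference 1.88), with 5.71 and 5.39 FPKM in the eye and antenna parts at 120 h. MsrA (Eip71CD), a methionine sulfoxide reductase, fell from 45.2 to 15.6 FPKM, below both parts (44.7 and 44.9 FPKM).

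Of the 5 members of the midprepupal list, in which chinmo was also kept, 2 rose and 1 fell. The 5 FPKM minimum left out Edg91, at 4.975 FPKM at 120 h and 0.275 FPKM in WPP, and Edg78E, at 0.709 and 0.230 FPKM. Hr3 (FBgn0000448), an orphan nuclear receptor that represses early genes and prepares the prepupal response, read 0.194, 0.528 and 30.6 FPKM in the whole disc at 72, 96 and 120 h, and 174 FPKM in WPP. At 120 h its eye and antenna parts held 42.3 and 36.7 FPKM, so the WPP level lay far above all 3 libraries, by 2.47 on the log2 scale against the whole disc. Blimp-1 (FBgn0035625), an ecdysone-induced repressor known to hold ftz-f1 off in prepupae, read 0.0563, 1.31, 42.7 and 133 FPKM in the same order, with 43.5 and 52.6 FPKM in the parts. Its difference was 1.62, again above all 3 libraries. The ftz-f1 gene (FBgn0001078), a nuclear receptor that is the competence factor of the prepupal pulse, ran the other way, through 23.7, 11.5 and 6.43 to 0.719 FPKM. The whole disc fell by 2.11 on the log2 scale, but the 120 h parts were already at 1.44 and 0.635 FPKM, so WPP did not lie outside the range of the 120 h libraries, and the fall was under 2-fold against the mean of the parts. Hr39, a nuclear receptor gene, was at 46.7 and 67.6 FPKM, and chinmo, a factor of the larval state, went through 78.2, 27.2 and 9.16 to 6.43 FPKM, with most of its decline before 120 h.

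**Figure D2:**
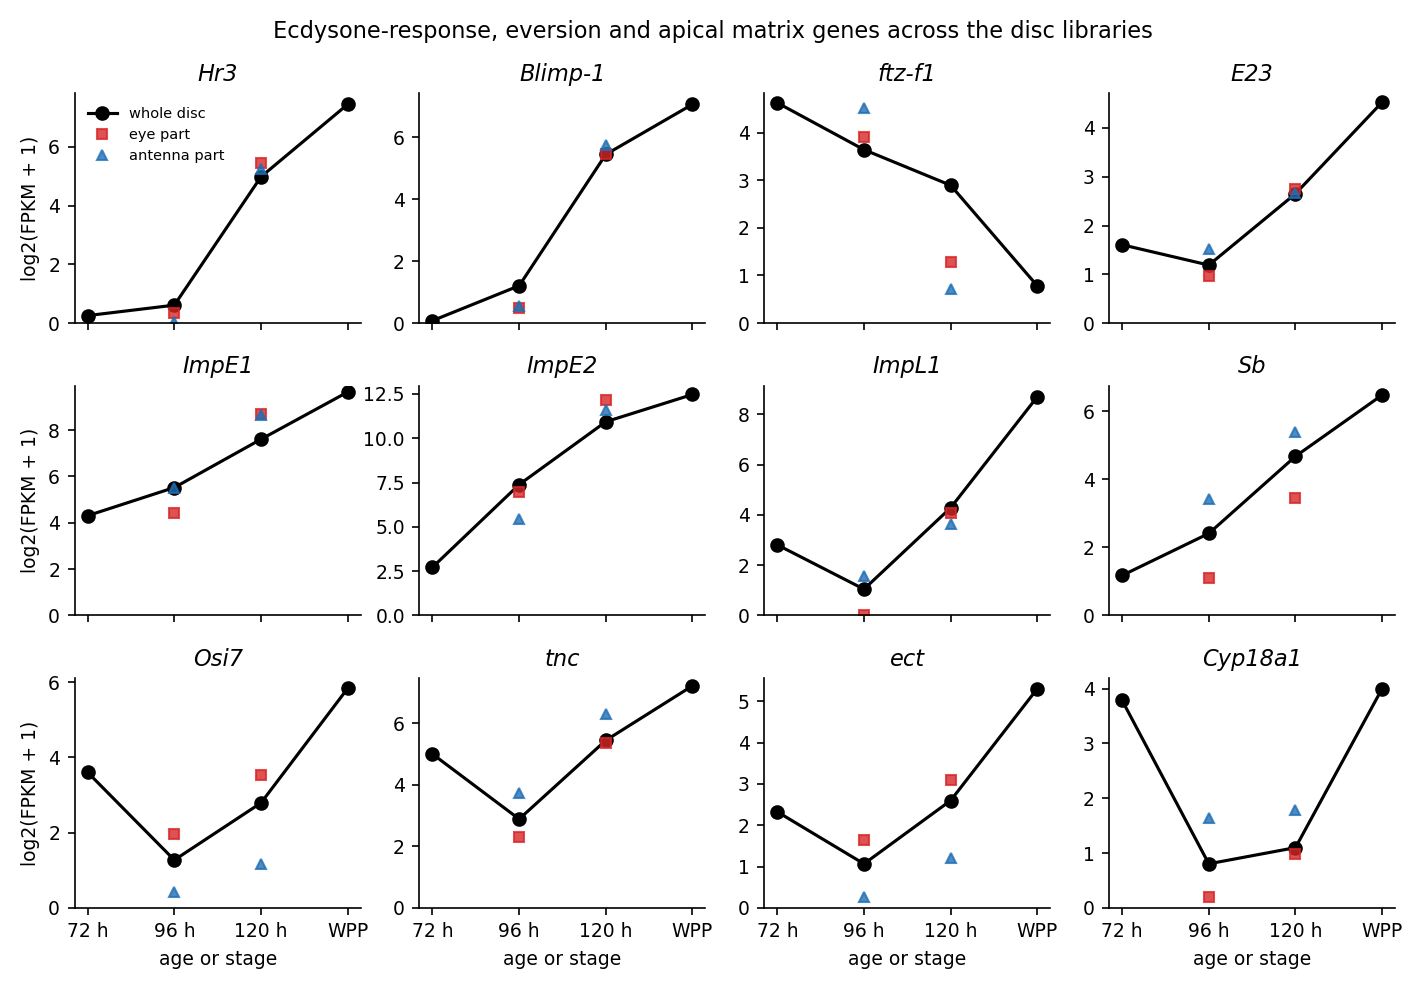
Level of 12 genes as log2(FPKM + 1), y axis, by age or stage, x axis; black points and lines are whole discs, red squares the eye part and blue triangles the antenna part, 1 library each. Hr3 and Blimp-1 climb from near 0 at 72 h, ftz-f1 declines, and Osi7, ImpL1, tnc, ect and Cyp18a1 are lower at 96 h than at 72 h before they reach their highest level in WPP.

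Genes that ecdysone induces in discs and genes of disc eversion were higher in WPP in 6 of 10 members and lower in none, with a median of 1.60. Over all members 4.63% were higher and 6.76% lower. ImpL1 (FBgn0001256), first found as an ecdysone-inducible disc transcript, had the largest rise but one among the named genes with long transcripts: 6.01, 1.07 and 18.5 FPKM at 72, 96 and 120 h and 415 FPKM in WPP, a log2 difference of 4.42. The parts held 16.1 and 11.3 FPKM at 120 h, so no larval disc sample came near the prepupal level. ImpE1 (FBgn0001253), a protein with LDL receptor repeats, went through 18.8, 45.0 and 194 to 799.8 FPKM. ImpE2 (FBgn0001254), an apically secreted disc protein, went through 5.59, 166 and 1946 to 5650 FPKM. ImpE3 went through 2.12, 16.4 and 114 to 364 FPKM. All 3 ImpE genes were thus on a continuous climb that had begun before 120 h. The 120 h libraries differed among themselves here: the eye part held 414 FPKM of ImpE1, 4582 of ImpE2 and 202 of ImpE3, each above the whole disc. Against the mean of the parts the differences were 0.97, 0.49 and 1.03, so that 4 of the 10 genes passed the size in that setting, with a median of 0.73.

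Sb (Stubble, FBgn0003319), a transmembrane serine protease required for eversion of the legs and wings, rose from 24.5 to 87.7 FPKM (1.8). The 120 h eye part held 9.84 FPKM and the antenna part 40.9 FPKM, and WPP was above both. The myosin regulatory light chain gene sqh did not pass the size, at 308 FPKM at 120 h and 269 FPKM in WPP. Of the matrix genes, Mmp1, a matrix metalloprotease that cuts basement membrane, rose from 16.4 to 45.8 FPKM (1.42), above the parts (13.2 and 24.4 FPKM), whereas Mmp2 stayed at 125 and 121 FPKM. The collagen IV gene vkg fell from 7.005 to 2.35 FPKM, within 2-fold of the eye part (2.44 FPKM). The list held 10 members, 1 higher and 2 lower, with a median of -0.33, against 4.63% and 6.76% of all members. Among 11 integrin and adhesion genes only if, an alpha integrin, passed the size, falling from 21.8 to 9.60 FPKM. All 21 junction genes stayed within 2-fold, with differences from -0.38 to 0.40.

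Zona pellucida domain and other apical matrix proteins anchor the epithelium to the cuticle above it and shape hairs and denticles. Of 14 such members 9 rose and none fell, with a median of 1.43, against 4.63% of all members higher. Osi7 (FBgn0037414), a member of the Osiris family of transmembrane proteins, read 11.1, 1.41 and 5.91 FPKM at 72, 96 and 120 h and 55.9 FPKM in WPP (3.04). Its neighbour in the family, Osi6, read 14.4, 0.954, 5.15 and 23.9 FPKM in the same order. Both were low in the 120 h antenna part (1.25 and 0.745 FPKM) and moderate in the eye part (10.6 and 6.87 FPKM), and WPP was above both parts. The ZP genes m (miniature) and dy (dusky), which shape wing cells, came from near absence, m through 0.0547, 0.185 and 2.14 to 17.8 FPKM and dy through 0.677, 0.697 and 2.07 to 13.7 FPKM. The ZP genes mey, nyo and neo, known from embryonic denticles, reached 12.3, 29.4 and 92.3 FPKM from 3.82, 10.7 and 40.9 FPKM at 120 h. The secreted matrix protein tnc (tenectin) rose from 42.5 to 148 FPKM, with 77.7 FPKM in the 120 h antenna part. The ectodermal gene ect rose from 5.06 to 38.7 FPKM. The members that did not rise were the giant matrix protein dpy (11.6 and 6.75 FPKM), pot, pio, qsm and fw, whose differences lay between -0.70 and 0.62. Of the 9 genes, 5 were at least 2-fold above all 3 libraries of the 120 h disc. Among the 9, mey, dy and m were under 5 FPKM at 120 h and entered only through WPP. Such entry favours a rise, so the share of 9 in 14 is not free of the 5 FPKM minimum.

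Cuticle proteins themselves were mostly under the 5 FPKM minimum or lower. Of 82 genes of the RR family, chitin-binding proteins of the cuticle, 19 were members, 2 of which rose and 8 fell (median -0.55). The shares over all members were 4.63% and 6.76%. Lcp4, a larval cuticle protein, went through 65.3, 81.1 and 14.9 to 0.224 FPKM, and Lcp65Af through 671, 205 and 25.9 to 4.72 FPKM. Lcp9 fell from 27.3 to 4.20 FPKM, Lcp1 from 6.51 to 0.566 FPKM, Cpr92A from 11.7 to 2.89 FPKM and the pupal cuticle protein Pcp from 10.9 to 2.42 FPKM. The 2 that rose did so from low or moderate levels, Cpr66D from 16.4 to 48.6 FPKM and Ccp84Af from 1.68 to 5.57 FPKM after 705 FPKM at 72 h. Most of these transcripts are under 1000 nt: above that length 1 rose and 3 fell. Only 2 of 21 Tweedle genes, another cuticle family, were members, and neither passed the size.

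Among 20 genes of chitin synthesis and turnover 1 rose and 4 fell, with a median of -0.19. Over all members 4.63% rose and 6.76% fell, so 1 riser in 20 was about the general share. The chitinase Cht5 rose from 5.66 to 15.8 FPKM after 0.436 FPKM at 96 h. The chitin deacetylases serp and verm, at 217 and 401 FPKM in WPP, and the chitin synthase kkv, at 51.7 FPKM, stayed within 2-fold of 120 h. Idgf6, a secreted chitinase-like protein, had the largest fall but one among the named genes with long transcripts, through 320, 125 and 46.6 to 1.69 FPKM (-4.14), and its 120 h parts held 28.1 and 43.0 FPKM. Of the tanning enzymes only 4 of 15 in the table were members and 3 of them rose: ple, tyrosine hydroxylase, from 1.69 to 9.14 FPKM, b (black), an aspartate decarboxylase, from 5.10 to 14.5 FPKM, and yellow-c from 2.80 to 8.98 FPKM. With under 5 FPKM at 120 h, ple and yellow-c entered only through WPP, and ple, the lower, therefore had to pass the size. The same minimum left out yellow-b, at 4.73 and 0.251 FPKM, and yellow-e, at 1.505 and 0.172 FPKM. The antenna part at 120 h already held 18.6 FPKM of b, and against the mean of the parts b differed by 0.78.

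**Figure D3:**
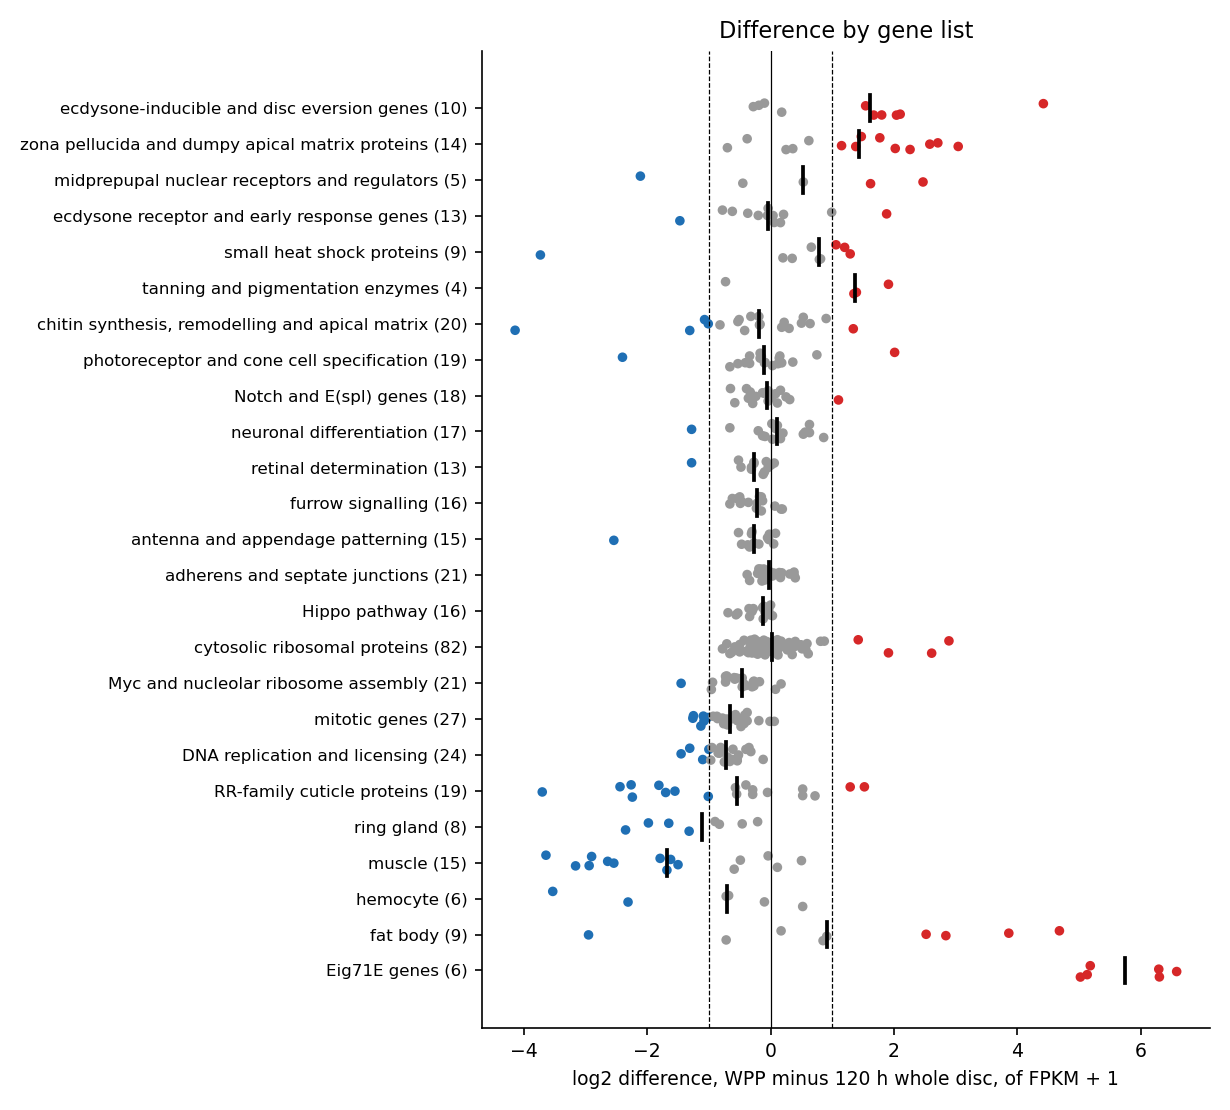
Difference between WPP and the 120 h whole disc (x axis, log2 of FPKM + 1) for each member of 25 gene lists (rows, with the number of members in brackets); red points are at least 2-fold higher, blue points at least 2-fold lower, grey points in between, and black bars are medians. The bars of the eversion and apical matrix lists lie beyond the 2-fold line, those of replication and mitosis at -0.73 and -0.65, and those of the retinal, furrow, antenna, junction and Hippo lists between -0.27 and -0.02.

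Growth and division genes were lower as a body, by less than 2-fold for most. Over all members 6.76% fell. All 24 DNA replication members had a negative difference, with a median of -0.73, and 3 fell: Orc2, of the origin recognition complex, from 9.12 to 2.71 FPKM, Psf2, of the GINS complex, from 25.2 to 9.55 FPKM, and Ts, thymidylate synthase, from 47.2 to 21.5 FPKM. The MCM helicase genes Mcm2, Mcm5, Mcm6 and Mcm7 had differences from -0.97 to -0.76. PCNA, the polymerase clamp, read 486, 423 and 243 FPKM at 72, 96 and 120 h and 149 FPKM in WPP. The median of the list was -0.83, -0.61 and -0.49 under same-sum scaling, median-ratio scaling and the mean of the parts, so its sign did not depend on the scaling.

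Against a share of 6.76% fallen over all members, mitotic genes fell more often. Of 27 mitotic members 26 had a negative difference, with a median of -0.65, and 6 fell. These were tum (59.1 to 24.2 FPKM) and pav (51.0 to 23.4 FPKM), the centralspindlin pair of cytokinesis; fzy, an activator of the anaphase-promoting complex (40.6 to 16.4 FPKM); the kinase aurB (35.9 to 15.9 FPKM); the kinesin ncd (37.5 to 17.3 FPKM); and Ndc80 of the kinetochore (10.3 to 4.58 FPKM). Against the mean of the parts 3 of the list passed the size, fzy among them, but tum, pav, aurB, ncd and Ndc80 did not. Cdk1 (142 and 149 FPKM) and CycA (124 FPKM in both) were level. The Cdc25 phosphatase gene stg, which drives entry into mitosis, read 139 and 104 FPKM (-0.42). The G1 kinase Cdk4 fell from 51.8 to 9.69 FPKM (-2.30), below both 120 h parts (43.4 and 42.1 FPKM), while its partner CycD read 43.2 and 36.9 FPKM. All 8 other disc libraries held between 40.3 and 51.8 FPKM of Cdk4, so it was low in WPP alone, with no earlier decline. Whether its fall is of the tissue or of read assignment was not tested. The decline of replication and mitosis had begun earlier in the parts: between 96 and 120 h the eye part had medians of -0.89 and -0.78 and the antenna part of -0.73 and -0.57, while from 72 to 96 h in the whole disc it was -0.10 and 0.10.

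Genes of ribosome assembly followed with a median of -0.46 over 21 members. Myc, the growth regulator, read 115.4 and 58.8 FPKM and Fib, a nucleolar methyltransferase, 165 and 85.6 FPKM, both just under 2-fold, and the polymerase subunit gene Polr1C fell from 28.2 to 9.65 FPKM. The 120 h eye and antenna parts held 88.0 and 88.9 FPKM of Myc and 82.3 and 112 FPKM of Fib. For Fib the 120 h eye part was thus near the WPP level. Cytosolic ribosomal proteins did not follow: the median over 82 members was 0.03, and 4 rose, all from short transcripts. Over all members 4.63% rose. For RpL41 and RpL39 the 120 h parts differed more than the stages did. RpL39 read 8539 FPKM in the 120 h disc and 52000 FPKM in WPP, while the 120 h eye part held 60540 FPKM and the antenna part 2066 FPKM. RpL41 was at 23960 FPKM in the 120 h disc and 90130 FPKM in WPP, but at 187500 FPKM in the eye part at 120 h and 26700 FPKM in the antenna part. Against the mean of the parts RpL41 differed by -0.47 and RpL29 by -0.05, so both reversed, and RpL39 differed by 0.46. The 32 proteasome members stayed within 2-fold, with a median of 0.06, and of the 66 respiratory chain members 1 rose and 2 fell (median 0.04).

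Patterning and neural genes of the eye and antenna mostly stayed within 2-fold across pupariation, as did most members, of which 11.4% passed the size. In retinal determination 12 of 13 members stayed within 2-fold, among them the eye selector ey (32.2 and 30.1 FPKM), so (41.7 and 39.8 FPKM) and eya (99.3 and 80.1 FPKM). The exception was dac (dachshund), a nuclear factor of the eye field, which went through 82.8, 109 and 66.8 to 26.9 FPKM, with 75.2 FPKM in the 120 h eye part and 10.03 FPKM in the antenna part. It was lower than the eye part but not lower than the antenna part, and against the mean of the parts its difference was -0.86. None of 16 furrow signalling members passed the size (median -0.23), nor did any of 16 Hippo, 13 planar polarity, 17 axon guidance or 5 phototransduction members.

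Among 19 photoreceptor and cone cell genes 1 rose and 1 fell. The riser was pros (prospero), a homeodomain factor of cone cells and the R7 photoreceptor, through 0.733, 1.57 and 5.82 to 26.6 FPKM, against 7.87 FPKM for the 120 h eye part and 1.498 FPKM for the antenna part. The faller was run (runt), a factor of R7 and R8, through 0.0683, 1.43 and 5.69 to 0.2702 FPKM, against 5.99 and 1.88 FPKM in the parts. The neuronal marker elav (59.6 and 55.8 FPKM), gl (90.6 and 80.3 FPKM) and sev, the R7 receptor (23.8 and 26.0 FPKM), were alike in both libraries. In the Notch list neur, the ubiquitin ligase of Delta, rose from 20.9 to 45.8 FPKM, and the other 17 stayed within 2-fold. Of 19 EGF receptor pathway genes only the ligand vn fell, from 7.63 to 0.0451 FPKM, and vn was one of the 31 members that were low in WPP alone. The antenna list had 1 faller of 15, TfAP-2, through 5.24, 12.0 and 19.6 to 2.54 FPKM, with 29.1 FPKM in the 120 h antenna part and 2.27 FPKM in the eye part. Other antenna genes, such as Dll (56.7 and 43.7 FPKM), ss (13.5 and 13.1 FPKM) and al (26.2 and 27.1 FPKM), did not pass the size, and the list's median of -0.27 was that of the retinal list. Of 9 glial members only moody, a receptor of the blood-brain barrier, rose, from 6.78 to 22.4 FPKM.

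Stress and death genes mostly stayed within 2-fold, as did most members, of which 11.4% passed the size. Of 9 small heat shock protein members, several of which ecdysone is known to induce, 3 rose: Hsp26 from 586 to 1432 FPKM, Hsp22 from 25.1 to 58.7 FPKM and Hsp67Ba from 164 to 344 FPKM. The 120 h parts held 978 and 1185 FPKM of Hsp26, and against their mean none of the 3 passed the size. Another member, l(2)efl, went the other way, through 127, 104 and 56.4 to 3.33 FPKM, with 7.45 FPKM in the 120 h eye part and 58.2 FPKM in the antenna part. Of 20 death and autophagy members only rpr (reaper), an inhibitor of the caspase blocker Diap1, rose, from 10.3 to 24.6 FPKM after 47.3 FPKM at 72 h, and it differed by 0.91 from the mean of the parts. Ldh (ImpL3), lactate dehydrogenase, rose from 14.4 to 64.9 FPKM (2.10) after 98.8 and 72.3 FPKM at 72 and 96 h, while the other 11 glycolysis members stayed within 2-fold. Of 11 heat shock and stress members Hsp68, a chaperone, rose from 54.6 to 146 FPKM and Thor, the translation inhibitor 4E-BP, fell from 186 to 87.0 FPKM. The 120 h eye part held 90.8 FPKM of Thor, close to WPP, and the antenna part 184 FPKM.

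The remaining lists held few genes past the size, which 11.4% of all members passed. Of 17 neuronal differentiation members dac alone fell, with a median of 0.11. Of 12 eye pigment members cn, an enzyme of ommochrome synthesis, fell from 8.55 to 0.118 FPKM, with 11.2 and 0.280 FPKM in the 120 h parts. Thor was the faller among 11 insulin pathway members, and ken, a repressor, the faller among 8 JAK/STAT members, from 14.7 to 4.38 FPKM. Cdk4 was the faller among 12 regulators of G1 and cell cycle exit. Of 69 mitochondrial ribosomal proteins 2 rose and 1 fell, with a median of -0.04. Of 2 midgut members Npc2b fell from 8.35 to 0.188 FPKM, and of 4 tracheal members vvl, a POU factor, fell from 10.9 to 4.94 FPKM. None of 3 neuroblast and 5 peripodial members passed the size.

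Hormone synthesis genes, which belong to the ring gland rather than the disc, were lower. This gland and the discs both lie against the larval brain. Of 8 ring gland members 4 fell and none rose (median -1.11), against 6.76% and 4.63% of all members. The ecdysone synthesis genes sro, dib and phtm fell from 27.5 to 6.22, from 15.7 to 4.34 and from 102 to 40.2 FPKM. Of 6 juvenile hormone members 1 fell, the methyltransferase jhamt, through 146, 63.4 and 7.503 to 0.664 FPKM. The summed level of the 8 genes was 306 FPKM in WPP, 553 FPKM in the 120 h disc, and 361 and 536 FPKM in the 120 h eye and antenna parts. It had fallen from 1311 and 1241 FPKM at 72 and 96 h, and none of the 8 was under 0.5 FPKM in WPP. Of 8 members of steroid synthesis and clearance these 3 fell and 1 rose. The riser was the ecdysone-clearing enzyme Cyp18a1, a cytochrome P450 that 20-hydroxyecdysone induces, from 1.14 to 15.01 FPKM (2.90), after 12.8 FPKM at 72 h and 0.745 FPKM at 96 h. The parts held 0.977 and 2.46 FPKM at 120 h, so WPP stood above all 3 libraries.

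Markers of other tissues moved with the comparison in both directions. Muscle genes fell in 10 of 15 members and rose in none (median -1.68), where 6.76% of all members fell and 4.63% rose. Mlc1, a myosin light chain, went through 1493, 490.4 and 24.8 to 1.07 FPKM, up, a troponin T, through 1812, 511 and 48.5 to 4.53 FPKM, and Mf, a myofilament protein, through 708, 212 and 31.4 to 3.23 FPKM. The 120 h antenna part held more of each (25.6, 85.1 and 53.5 FPKM) and the eye part less (3.10, 12.1 and 7.77 FPKM). Summed over 19 muscle genes the level was 698 FPKM in the 120 h disc and 438 FPKM in WPP, against 398 and 950 FPKM in the eye and antenna parts, and 3 of them were under 0.5 FPKM in WPP. Of 6 hemocyte members 2 fell. PPO2, the crystal cell phenoloxidase, fell from 35.0 to 2.11 FPKM, with 4.95 and 7.65 FPKM in the parts, and Hml, a hemocyte adhesion protein, fell from 5.17 to 0.242 FPKM. The summed hemocyte level was 157 FPKM at 120 h and 89.3 FPKM in WPP, and 133 and 85.3 FPKM in the 120 h eye and antenna parts. In WPP 5 of 12 hemocyte genes were under 0.5 FPKM. The part of muscle, hemocyte and ring gland RNA in the falls was not tested.

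Fat body genes rose in 4 of 9 members and fell in 1 (median 0.91), where 4.63% of all members rose and 6.76% fell. Fbp1, the fat body receptor for larval serum protein, had the largest rise among the named genes with long transcripts, from 6.95 to 203 FPKM (4.68), with 23.8 and 13.3 FPKM in the 120 h parts. Fbp2 rose from 9.62 to 153 FPKM, the serum protein Lsp2 from 13.2 to 100.6 FPKM and the lipoprotein apolpp from 0.916 to 9.96 FPKM. These levels were 2.72%, 4.02%, 0.835% and 2.57% of those in the 120 h whole larva. The other serum proteins did not pass the size on the scale of log2(FPKM + 1): Lsp1beta read 8.72 and 16.5 FPKM (0.85) and Lsp1gamma 5.51 and 11.2 FPKM (0.91). Lsp1alpha, at 2.70 and 3.90 FPKM, was under the 5 FPKM minimum. Obp99a, an odorant-binding protein gene kept in the same list, fell from 240.5 to 30.3 FPKM. Summed over 10 fat body genes WPP held 578 FPKM, against 346 FPKM in the 120 h disc and 192 to 1091 FPKM over the 8 other discs, and none of the 10 was under 0.5 FPKM in WPP. Obp99a alone gave 30.3 FPKM of the WPP sum and 240.5 FPKM of the 120 h sum. In WPP Fbp1, Fbp2 and Lsp2 stood above all 8 other discs, whereas apolpp was higher in the 72 h whole disc (77.2 FPKM). The part of fat body RNA in these rises was not tested.

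The Eig71E genes, small secreted proteins of the ecdysone-induced 71E late puff of the salivary gland, formed 2 sets in the prepupal disc. Of 9 in the table, 6 were members, at 0 to 0.327 FPKM in the 120 h disc and between 39.9 and 106 FPKM in WPP. Genes this low at 120 h could enter only through WPP and so had to pass the size. The other 3 stayed under 5 FPKM in WPP: Eig71Ee read 1.41 and 3.55 FPKM, Eig71Eh 0 and 0.697 FPKM, and Eig71Ei 0 and 0.919 FPKM. Eig71Ea went from 0.113 to 106 FPKM, Eig71Ed from 0.272 to 98.8 FPKM and Eig71Eb from 0 to 77.6 FPKM, and no other disc library held more than 0.507 FPKM of these 3. WPP held 928% of the 120 h whole larva's level of Eig71Ea (11.4 FPKM) and 672% of that of Eig71Eg (5.94 FPKM). The glue genes of the salivary gland did not move as one with them. Sgs3 read 5.12 and 4.99 FPKM and Sgs5 4.55 and 7.46 FPKM, whereas Sgs7 rose from 169 to 882 FPKM and Sgs8 from 31.5 to 141 FPKM, close to the eye part at 120 h (731 and 136 FPKM). All 8 of these risers have transcripts under 1000 nt, the class that varied most between libraries, and the part of salivary gland RNA was not tested. Over all members, 163 (2.25%) were at least 10-fold higher in the 120 h whole larva than in the 120 h disc; of the genes that rose 74 (22.1%) were, and of the genes that fell 40 (8.18%).

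**Figure D4:**
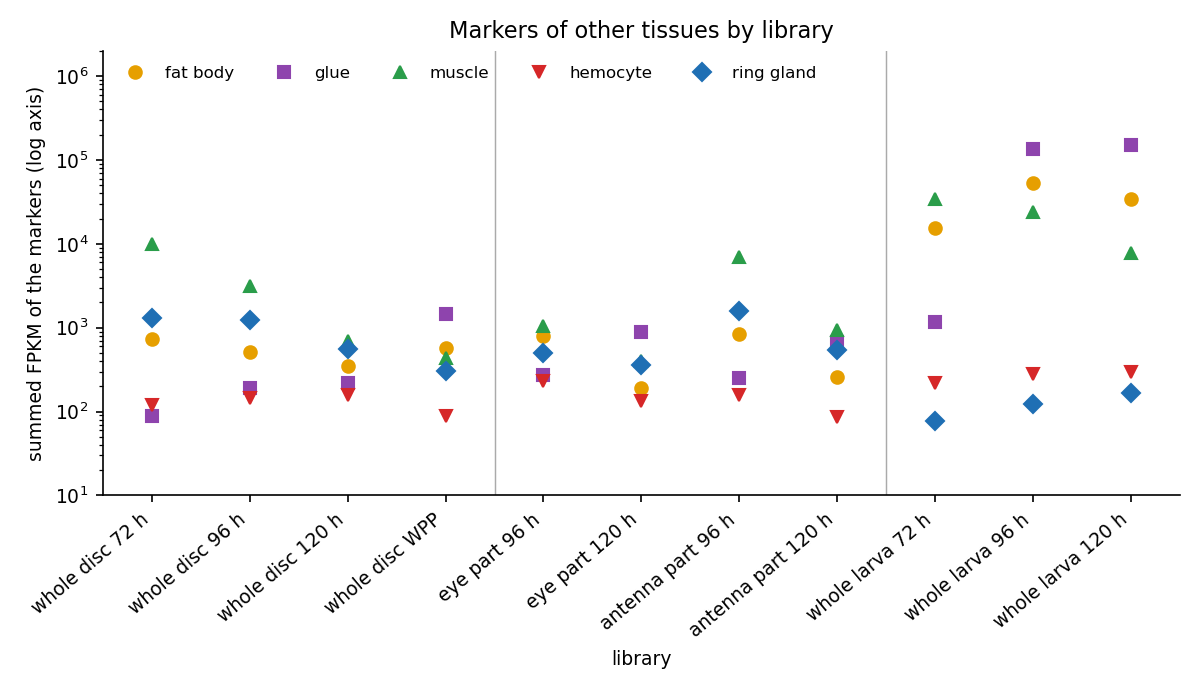
Summed FPKM of the marker genes of 5 other tissues (y axis, log scale) in each of 11 libraries (x axis), with grey lines between whole discs, separated parts and whole larvae. WPP has the most glue and Eig71E RNA of these disc libraries (1452 FPKM) but less muscle, hemocyte and ring gland RNA than the 120 h whole disc. Its fat body sum of 578 FPKM lies within the range of the other discs, but Obp99a alone gave 241 FPKM of that sum in the 120 h disc and 30.3 FPKM in WPP.

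Of the 15 largest rises among named genes with transcripts of at least 1000 nt, several are described above (Fbp1, ImpL1, Fbp2, Osi7, Cyp18a1, Lsp2 and ect). Jhbp2, a juvenile hormone binding protein, rose from 5.98 to 63.9 FPKM, with 4.20 FPKM in the 120 h eye part and 27.4 FPKM in the antenna part. NLaz, a lipocalin, rose from 8.08 to 61.4 FPKM. The long noncoding RNA lncRNA:cherub rose from 4.09 to 34.1 FPKM, back towards its 48.4 FPKM at 72 h. The remaining risers were at about 1 FPKM or less in most larval whole discs: AGO3, a piRNA-pathway Argonaute, read 0.613 and 11.0 FPKM, Mst84B 0.294 and 20.5 FPKM, the antigen 5-related gene Ag5r 0.127 and 14.8 FPKM, Rcd7 0.461 and 14.9 FPKM, and the cathepsin CtsL3 0.121 and 6.61 FPKM. Of these, Rcd7 had been at 4.43 FPKM in the 96 h whole disc and 4.63 FPKM in the 120 h eye part.

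The 15 largest falls were led by dlp, Dally-like, a glypican that spreads Wingless and Hedgehog, which read 34.3, 36.3 and 54.7 FPKM at 72, 96 and 120 h and 1.10 FPKM in WPP (-4.73). All 8 other disc libraries held between 32.5 and 79.8 FPKM, so dlp had the profile of the genes low in WPP alone. Of the 15, 8 were under 1 FPKM in WPP with at least 5 FPKM in every other disc library: GstT4, Drep4, Pof, cue, IntS6, esc, D2hgdh and MYPT-75D. The Polycomb-group gene esc, for instance, read 10.5 FPKM at 120 h and 9.97 and 10.3 FPKM in the parts, and 0.00163 FPKM in WPP. Whether such falls are of the tissue or of read assignment was not tested. In contrast, LamC, lamin C of the nuclear envelope, declined through 88.8, 40.9 and 22.8 FPKM before 1.01 FPKM in WPP, and Idgf6, Mlc1 and PPO2 are described above. DnaJ-60, a chaperone cofactor, and mei-S332, the shugoshin that guards centromere cohesion, read 13.9 and 12.0 FPKM at 120 h and under 0.1 FPKM in WPP; the antenna part at 120 h held only 0.0111 FPKM of mei-S332. Of the 5792 members that varied less than 3-fold over the 8 other disc libraries, 52 rose and 244 fell in WPP. Both were smaller shares than over all 7239 members, of which 335 (4.63%) rose and 489 (6.76%) fell.

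The genes that rose at pupariation had often been rising already. The separated parts share no library with the comparison, so their 96 to 120 h step could be counted against it. In the eye part 4.48% of 6958 members rose at least 2-fold and 3.35% fell, and of the genes higher in WPP with at least 5 FPKM in that step 95 of 184 (51.6%) had risen and 12 (6.52%) had fallen. In the antenna part 4.14% of 6837 members rose and 5.24% fell, against 92 of 198 (46.5%) and 38 (19.2%) of the genes higher in WPP. Both parts rose for 60 of 164 (36.6%), where 1.92% of all members did. For 117 of the 335 the level was under 5 FPKM in both steps. Of the genes lower in WPP, 129 of 457 (28.2%) had fallen in the eye part, 144 of 460 (31.3%) in the antenna part and 99 of 436 (22.7%) in both, where 2.25% of all members had. With the mean of the parts as the 120 h level, the counts of genes moving the same way in both parts were 36 and 46. In that setting the 120 h parts entered both the step and the comparison with WPP. A part high at 120 h favours a rise in the step and works against a rise to WPP, and the reverse holds for falls. The smaller counts were therefore partly built in.

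**Figure D5:**
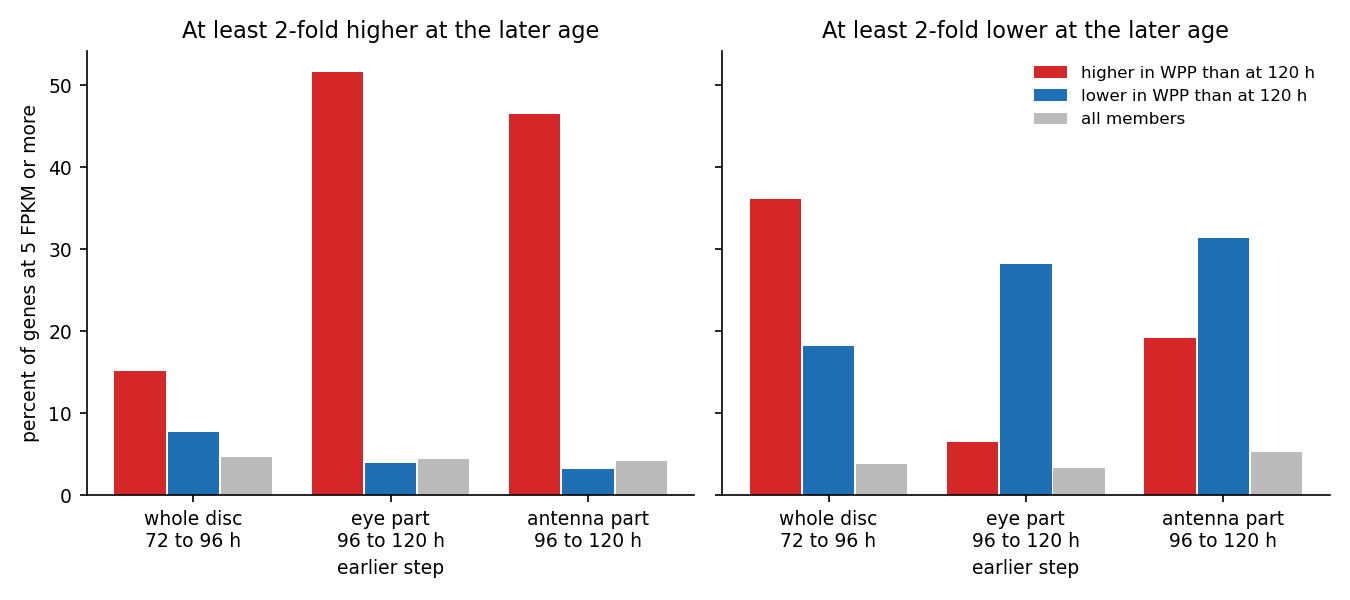
Percent of genes with at least 5 FPKM in a step (y axis) that were at least 2-fold higher (left) or lower (right) at the later age, for 3 earlier steps (x axis); red bars are the genes higher in WPP than at 120 h, blue bars the genes lower in WPP and grey bars all members. The red bars reach 51.6% and 46.5% for a rise in the eye and antenna parts and 36.1% for a fall from 72 to 96 h.

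The parts also differed in which genes they held at 96 h. Of all members 4.0% were at least 2-fold higher in the eye part than in the antenna part and 4.42% the reverse. Of the genes lower in WPP 25 of 467 (5.35%) were eye-high and 93 (19.9%) antenna-high by this size, and of the genes higher in WPP 23 of 158 (14.6%) and 37 (23.4%). The muscle genes summed to 7015 FPKM in the 96 h antenna part and to 1041 FPKM in the 96 h eye part.

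A further pattern was a level that fell from 72 to 96 h and was higher in WPP than at 120 h. From 72 to 96 h in the whole disc 4.68% of members rose and 3.85% fell, but of the genes higher in WPP 69 of 191 (36.1%) fell and 29 (15.2%) rose. Of the genes lower in WPP 82 of 451 (18.2%) fell and 35 (7.76%) rose. The genes higher in WPP were picked partly for a low 120 h level. A minimum of 5 FPKM at 72 or 96 h then favours those with an earlier fall, so their share is not like for like with that of all members. Beside Osi7, Osi6, ImpL1 and Cyp18a1, given above, the 69 held ple (23.5, 1.34, 1.69 and 9.14 FPKM at 72, 96, 120 h and WPP), tnc (31.0, 6.39, 42.5 and 148 FPKM) and the odorant-binding protein gene Obp99c (106, 5.68, 4.85 and 47.98 FPKM). In 27 of the 69 the WPP level was above that at 72 h. In others it stayed far below, as for Ccp84Af, at 705 FPKM at 72 h and 5.57 FPKM in WPP. The whole larva showed the same fall for 22 of the 59 with enough signal there (37.3%), where 12.8% of 5796 members did. Of the 69, 32 were at least 10-fold higher in the 120 h whole larva than in the disc and 37 were not, and the part of other tissues in the pattern was not tested.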

How the data were processed

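The series gives 1 table of expression values per gene for 12 libraries of Drosophila melanogaster, of which 9 are eye-antennal discs or parts of them. The deposited values carry no unit label, and their fractional values and sums per disc library of 939303 to 1398687 were taken as FPKM; TopHat, Cufflinks and the dm3 build are named in the submitters' processing notes, while neither annotation nor strand setting is named there. Reads behind each value are unknown, so no interval for counting error was given. The authors' cluster number was not used.

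Groups and ages came from the labels, with 1 library per group, so no test was made. Differences were computed as log2(FPKM + 1) in WPP minus the 120 h whole disc, for genes with at least 5 FPKM in the higher; a pseudocount of 1 understates the change of low genes. Set aside were 63 genes under 1 FPKM in WPP with at least 10 FPKM in all 8 other discs (25 of them small RNAs) and 385 small RNA symbols, 320 genes in all among those at 5 FPKM. Symbols, transcript lengths and spans were matched by gene ID to the Ensembl annotation of BDGP6.54, a later build than the files use (10308 of 10893 IDs, 94.6%), so no coordinates or sequences are given. Named genes were the 15 largest rises and 15 largest falls among members with a name other than a CG or CR number, a transcript of at least 1000 nt where known and a WPP level outside the range of the 3 libraries of the 120 h disc, and for each of 51 lists up to 6 genes past 2-fold plus its first 4 genes; genes beyond this rule, such as further list members within 2-fold, were chosen after their values were seen. The members and lists were chosen with earlier results of these data known. Scripts (Python 3.11.15, pandas 2.3.3, numpy 2.4.6, matplotlib 3.10.9) were tested on simulated data. Alternatives were other pseudocounts, FPKM minimums, scalings, a length limit, the weighted mean of the 120 h parts and a 4-fold size.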

Additional observations from a re-analysis of the deposited data

How the results depend on the processing

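Against 335 genes higher and 489 lower in WPP, 192 and 237 outside all 3 libraries of the 120 h disc, and 60 and 99 that moved the same way in both parts, 5 of the 12 other settings kept all 6 counts within 1.5 times. A pseudocount of 5 left 321 lower, 113 below the 120 h range and 64 lower in both parts. A minimum of 20 FPKM gave 182, 210, 98, 86, 30 and 48 in the order above. Transcripts of at least 1000 nt gave 199 higher, 118 above the range and 52 lower in both parts. The mean of the 120 h parts gave 36 higher and 46 lower in both, counts that the shared 120 h parts partly build in. Keeping the genes set aside gave 356 below the range and 155 lower in both parts, and a 4-fold size gave 141, 183, 83, 75, 10 and 32. Genes overlapping no other gene, a setting chosen after seeing the data, gave 163, 200, 95, 88 and, for lower in both parts, 59. RpL41 (-0.47) and RpL29 (-0.05) reversed with the mean of the parts; the cause was not tested. Of 120 named genes, 84 stayed past 2-fold in every setting other than the 4-fold size. Same-sum scaling moved the median of all members to -0.21 and median-ratio scaling to 0.01, which changes the split: 296 higher and 559 lower against 388 and 425. No paired analysis was possible because each group holds 1 library. With 1 library each and unknown depth, a value under about 1 FPKM cannot be told from absence, and the spread of a prepupal disc is unknown.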

Other observations

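The genes named here were chosen after their values were seen. PGRP-SB2, a peptidoglycan recognition protein, was at or near 0 in all larval discs (at most 0.477 FPKM, in the 120 h eye part) and at 228 FPKM in WPP, from a transcript of 688 nt. Of 7 antimicrobial and immune members, a list without PGRP-SB2, 2 rose and 1 fell, against 4.63% and 6.76% of all members. A further 13 of the 20 genes of this list in the table were under the 5 FPKM minimum or set aside. With under 1 FPKM at 120 h, PGRP-SB2 and Drsl5 entered only through WPP and so had to pass the size. The antimicrobial-like gene Drsl5 read 0.830 and 121 FPKM, with 17.4 FPKM in the eye part, and the serpin Spn100A went through 0.870, 0.756 and 34.6 to 167 FPKM. Rel, the NF-kappaB factor of the immune deficiency pathway, fell from 19.1 to 2.52 FPKM. The small-peptide gene tal-AA (tarsal-less) went through 32.0, 45.7 and 74.8 to 476 FPKM, above 87.6 and 106 FPKM in the 120 h parts. The gene amos, the proneural factor of olfactory sensilla, read 0.0393 and 6.82 FPKM, and f (forked), an actin-bundling protein of bristles, 1.32 and 7.58 FPKM.

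Among genes with a role in secretion, CrebA, a transcriptional activator of the pathway, rose from 51.1 to 111 FPKM, Fkbp14, a prolyl isomerase of the endoplasmic reticulum, from 264 to 636 FPKM, and Tapdelta, of the translocon, from 330 to 716 FPKM. The 120 h antenna part held 69.6, 456 and 564 FPKM of these. The secreted metalloprotease genes tld (tolloid), AdamTS-B and sona fell, tld from 13.6 to 1.78 FPKM, AdamTS-B from 15.2 to 1.22 FPKM and sona from 6.88 to 0.470 FPKM, in contrast to Mmp1 above. The BMP antagonist sog fell from 32.4 to 13.4 FPKM. The transcription factor fru went through 137, 82.9 and 27.9 to 4.59 FPKM and apt through 44.3, 24.9 and 9.30 to 1.01 FPKM, both in steady decline from 72 h.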
